A study of Mus musculus with 6 samples.

Results

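Gene deserts are long stretches of the genome without protein-coding genes. The CpGs described here are the autosomal cytosines covered by 6 or more reads in all 6 libraries that lie more than 300 kb from the nearest protein-coding gene body (GRCm38, GENCODE M21). There were 14634 such cytosines, 2.30% of the 636736 autosomal cytosines and part of the 646645 nuclear cytosines with that coverage. They were compared with 71809 intergenic cytosines that lie 5 to 50 kb from a protein-coding gene. Membership rests on position and coverage alone and uses no methylation value.

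The 5-methylcytosine (5mC) level was read in the entire cerebral cortex of C57BL/6 mouse embryos at embryonic day 16 with Ox-RRBS, an oxidative form of reduced representation bisulfite sequencing in which MspI fragments are sequenced after an oxidation step that keeps 5-hydroxymethylcytosine from being counted as 5mC. The groups were 3 libraries of Uhrf1 conditional knockout embryos (cKO, Uhrf1 -/- in the labels) and 3 of heterozygous controls (Uhrf1 +/-). Per the study's methods, Emx1-Cre, present in both groups, removes the floxed exon 4 in cells of the dorsal telencephalon, so vessels, microglia and immigrating interneurons in the same tissue keep the gene, and controls have lost 1 copy in the recombined cells. No label links a library to a litter or says how many embryos it holds, so the p-values cover the spread between these libraries alone. In a mixture of cells, a lower level in every cell and a smaller number of methylated cells cannot be told apart.

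Uhrf1 binds hemimethylated CpGs behind the replication fork and brings in Dnmt1, the methyltransferase that copies the methylation pattern to the new strand. Without it, methylation is diluted with each cell division unless other enzymes add it back. Gene deserts are poor in CpG islands of the promoter kind and rich in transposon remnants, and their CpGs are mostly methylated in somatic tissue. In many dividing cell types deserts replicate late, and such late-replicating regions are known for incomplete maintenance of methylation. Some deserts carry distant enhancers of the developmental genes at their borders.

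The library labelled control replicate 1 stood apart. Its mean level over all autosomal cytosines was 15.5%, against 39.1% and 38.8% in control replicates 2 and 3, while the cKO libraries were at 19.4%, 19.3% and 15.7%. This level goes against its label, and nothing analysed here settles whether the label is right. It is kept as labelled below, and every value over all 3 controls depends on it. The level and the window test are given with and without it, and the share left is set against control replicates 2 and 3. These 2 controls differ from it by the measured level itself, so comparisons with them alone are not independent of the values. Median coverage of a desert cytosine was 20 to 28 reads per library.

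The members lay in 466 of 506 autosomal deserts, which together span 344.7 Mb, and the other 40 deserts held no member. A desert is taken here as the sequence more than 300 kb from every protein-coding gene body, so its ends lie 300 kb inside the gap between its flanking genes. The number of members per desert went up to 209, with a median of 21.5. Of the members, 7502 lay 300 to 500 kb from a gene, 5089 lay 500 to 1000 kb away and 2043 lay farther, up to 2283 kb. Soft-masked repeats held 48.2% of the desert cytosines, against 17.2% of the near-gene ones. The desert cytosines had on average 4.81 other CpGs within 100 bp on either side, against 5.52 near genes. Of the members, 11.9% lay inside an annotated gene of another type, such as a long noncoding RNA or a pseudogene.

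Windows of 100 bp show what this sequence looks like. The first set holds the window with the largest fall and the window with the smallest change in each of the 3 deserts with most members whose sequence was read, among windows with at least 3 covered cytosines and 50 reads in every library. They were chosen by their measured values, and the values are given as a description. Each line is the plus strand of GRCm38 with every CpG in capitals.

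Vrk1-3110018I06Rik, largest fall, chr12:106952201-106952300: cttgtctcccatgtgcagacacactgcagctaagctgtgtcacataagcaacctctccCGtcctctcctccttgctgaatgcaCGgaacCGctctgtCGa
Vrk1-3110018I06Rik, smallest change, chr12:106478301-106478400: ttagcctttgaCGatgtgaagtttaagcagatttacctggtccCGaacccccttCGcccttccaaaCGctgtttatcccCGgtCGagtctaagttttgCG
Ywhaq-Gm10330, largest fall, chr12:23426701-23426800: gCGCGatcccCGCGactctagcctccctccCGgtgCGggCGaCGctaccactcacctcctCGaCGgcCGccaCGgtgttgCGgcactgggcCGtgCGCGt
Ywhaq-Gm10330, smallest change, chr12:21784501-21784600: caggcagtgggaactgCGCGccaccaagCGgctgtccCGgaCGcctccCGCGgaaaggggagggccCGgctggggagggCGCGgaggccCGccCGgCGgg
Cntnap5b-Cdh20, largest fall, chr1:102049301-102049400: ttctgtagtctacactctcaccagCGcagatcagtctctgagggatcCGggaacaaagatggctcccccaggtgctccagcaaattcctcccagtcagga
Cntnap5b-Cdh20, smallest change, chr1:102092201-102092300: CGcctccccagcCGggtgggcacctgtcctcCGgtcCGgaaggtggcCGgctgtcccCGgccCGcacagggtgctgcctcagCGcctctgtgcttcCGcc

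In the desert beside Vrk1, a nuclear kinase gene, the window with the largest fall has 4 CpGs and lies 1512 bp from the long noncoding gene Gm16087. It was at 23.6%, 31.9% and 21.2% in the cKO libraries, against 13.1%, 77.2% and 74.1% in control replicates 1, 2 and 3, with 84 to 373 reads. The widest 95% Wilson interval of these levels was 65.1 to 81.4%. Such an interval covers counting error only and treats the summed counts as independent, so it can be too narrow. The window with the smallest change in the same desert has 7 CpGs and was nearly free of methylation, with 1.00%, 0 of 58 reads and 2.61% in the cKO libraries and 0 of 122 reads, 5.13% and 0 of 107 reads in the controls. If the summed counts were independent, a count of 0 in 58 would allow a level of up to 5.17%.

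Between Ywhaq and Gm10330, the window with the largest fall lies in the processed pseudogene Gm47393 and has 16 CpGs. It was at 15.5%, 27.6% and 14.3% in the cKO libraries and at 9.26%, 51.0% and 35.9% in control replicates 1, 2 and 3, with a widest interval of 27.3 to 45.5%. The window with the smallest change has 13 CpGs and was at 5.00%, 4.82% and 0.676% in the cKO libraries and 1.47%, 2.38% and 4.00% in the controls. No covered cytosine in these windows, or in those beside Vrk1, lies in a repeat.

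The desert between Cntnap5b, a contactin-associated cell adhesion gene, and Cdh20, a cadherin gene, held the pair of windows that differ most in sequence. The window with the largest fall has 2 CpGs, with 2 of its 3 covered cytosines in repeats, and was at 29.2%, 32.9% and 25.6% in the cKO libraries, against 12.5%, 84.3% and 86.5% in the controls. The window with the smallest change has 9 CpGs and all of its 4 covered cytosines in repeats. It was at 71.2%, 71.4% and 69.8% in the cKO libraries and at 69.4%, 71.9% and 67.6% in the controls, a difference of 1.09 points between the cKO mean and control replicates 2 and 3. The widest interval in these 2 windows was 59.7 to 77.6%.

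A second pair was taken, after the values were seen, from all 453 desert windows of that coverage whose level in control replicates 2 and 3 was 80% or more, to show the smallest change and the largest fall among methylated windows.

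Pot1a-Grm8, smallest change, chr6:26167901-26168000: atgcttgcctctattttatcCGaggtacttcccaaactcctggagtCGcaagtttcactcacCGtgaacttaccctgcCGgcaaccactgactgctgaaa
Pcdh20-Pcdh9, largest fall, chr14:90087601-90087700: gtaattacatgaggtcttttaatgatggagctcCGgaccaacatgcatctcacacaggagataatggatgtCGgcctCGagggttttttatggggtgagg

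The window between Pot1a and Grm8 was at 96.5%, 96.1% and 95.7% in the cKO libraries and at 94.6%, 97.4% and 97.2% in the controls. All of its 3 covered cytosines lie in repeats, and they had 3980 to 16123 reads per library when summed. A single cytosine of this desert had up to 5375 reads, far above the usual depth of a member. Whether reads of other copies of the repeat add to this window was not tested. Between Pcdh20 and Pcdh9, which encode protocadherins of the nervous system, the window, with 2 of its 3 covered cytosines in repeats, was at 27.0%, 19.6% and 17.0% in the cKO libraries, against 39.5%, 89.3% and 94.2% in the controls. The difference between the cKO mean and control replicates 2 and 3 was -70.5 points. Here control replicate 1 lay between the cKO libraries and the other controls.

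Desert CpGs were the most methylated of the classes compared, in every library. Averaged over the 14634 cytosines, the level was 42.4%, 41.3% and 34.5% in the cKO libraries, against 35.7%, 77.4% and 77.0% in control replicates 1, 2 and 3. The mean was 39.4% ± 4.26 in cKO (SD, n = 3) and 63.4% ± 23.9 in all 3 controls (SD, n = 3), a difference of -23.9 points (two-sided exact permutation test, p = 0.3). Against control replicates 2 and 3 alone, at 77.2% ± 0.304 (SD, n = 2), the difference was -37.8 points (exact permutation test, p = 0.1, the smallest this design allows). The groups did not overlap without control replicate 1 and overlapped with it. Control replicate 1 stands apart by the same level that is tested, so leaving it out separates the groups. No conclusion is drawn from the p-value without it. In near-gene cytosines the cKO mean was 27.7%, against 59.0% in control replicates 2 and 3 and 47.4% in all 3 controls. Over all autosomal cytosines it was 18.1%, against 38.9% in control replicates 2 and 3 and 31.1% in all 3 controls.

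**Figure D1:**
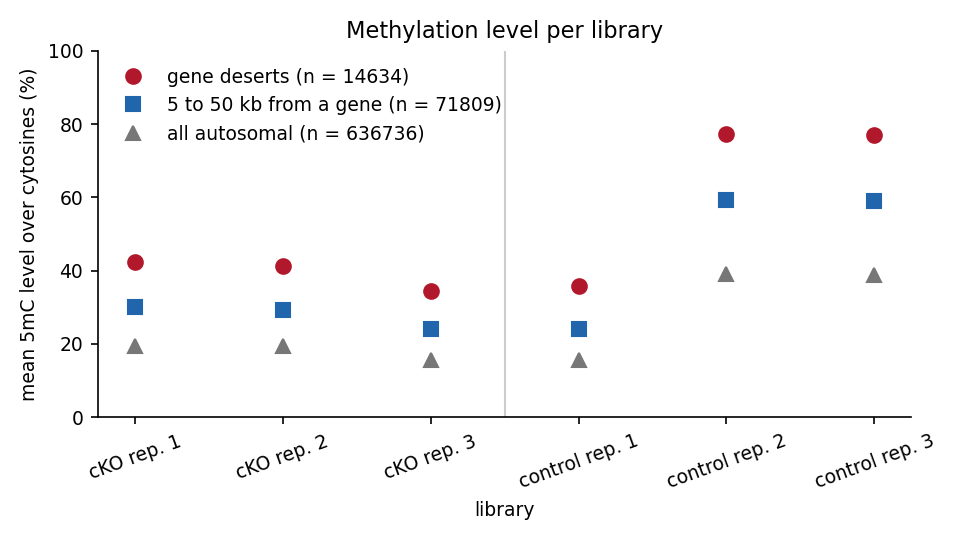
Mean 5mC level in percent (vertical axis) in each of the 6 libraries (horizontal axis, cKO left of controls) over desert cytosines (circles), cytosines 5 to 50 kb from a gene (squares) and all autosomal cytosines (triangles). Desert cytosines are highest in all 6 libraries, and control replicate 1, at 35.7% in deserts, lies within the range of the cKO libraries there, but just below it over all autosomal cytosines.

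Sites at high levels were few in the cKO libraries, and most sites were at intermediate levels. Sites at 80% or more made up 7.67%, 6.74% and 4.86% of the desert cytosines in the cKO libraries, against 6.48%, 66.3% and 66.0% in control replicates 1, 2 and 3. Sites at 20% or less made up 18.4%, 17.7% and 26.4% in the cKO libraries, against 29.4%, 7.97% and 8.60% in the controls.

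By their level in control replicates 2 and 3, most members were highly methylated, 3645 (24.9%) were intermediate and few were low. The 9816 members at 80% or more (67.1%) averaged 46.5% ± 4.74 in cKO (SD, n = 3), against 91.1% in control replicates 2 and 3 and 42.8% in control replicate 1. The intermediate members averaged 30.8% ± 4.27 in cKO (SD, n = 3), against 62.5% in control replicates 2 and 3 and 26.7% in control replicate 1. The 1173 members at 20% or less averaged 6.72% ± 0.642 in cKO (SD, n = 3), against 6.16% in control replicates 2 and 3 and 4.85% in control replicate 1. Repeats held 57.9% of the high class, 34.4% of the intermediate one and 9.55% of the low one.

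To compare the loss with that near genes, the share left was computed, which is the level in a library as a percent of the mean of control replicates 2 and 3. Because sites of high and low level lose different shares, the near-gene cytosines were weighted to the control levels of the desert ones, in bins of 5 points. The share left in deserts was 54.9%, 53.6% and 44.7% in cKO replicates 1, 2 and 3. Near genes, at matched level, it was 50.6%, 49.1% and 40.5%. Deserts thus kept 4.31, 4.44 and 4.28 points more, with a mean difference of 4.34 ± 0.0884 points (SD, n = 3).

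The difference had the same sign in 3 of 3 cKO libraries, with a two-sided exact sign-flip permutation p = 0.25, the smallest that 3 libraries allow, so that this design cannot reach 0.05. The share itself differed more between the cKO libraries than between deserts and near-gene cytosines, and the difference shows when each library is compared with itself. In control replicate 1 the share left was 46.3% in deserts and 41.3% near genes, a difference of 5.07 points. That library thus showed the same order as the cKO libraries. When the sites were matched on control replicate 2 and read against control replicate 3, the difference was 3.62 to 3.79 points over the cKO libraries, and 3.71 to 3.93 points the other way round.

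**Figure D2:**
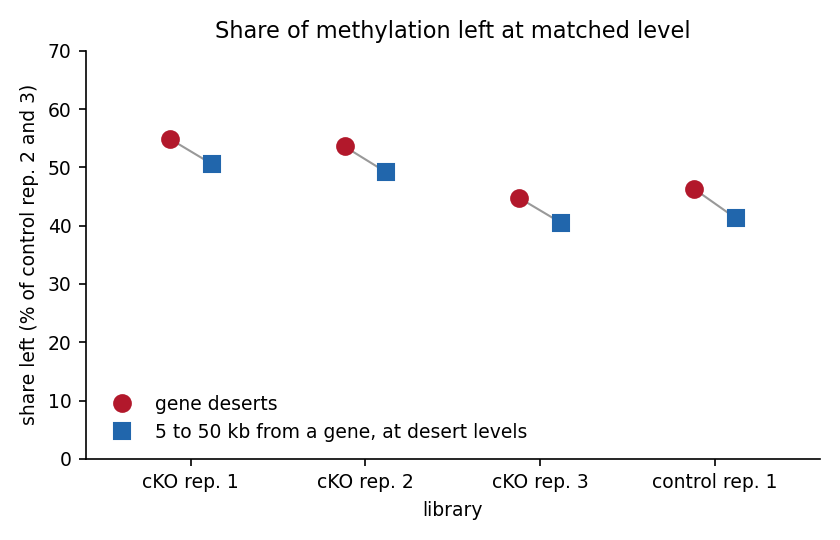
Share left in percent of the mean of control replicates 2 and 3 (vertical axis, from 0) in each cKO library and in control replicate 1 (horizontal axis). Circles are desert cytosines and squares are cytosines 5 to 50 kb from a gene weighted to the same control levels, with a line joining the 2 values of a library. The circle is higher in each of the 4 libraries, by 4.28 to 5.07 points.

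The order held over most of the range of control levels. Of the 5702 desert cytosines at 90 to 100% in control replicates 2 and 3, the mean levels were 53.5%, 52.3% and 45.1% in the cKO libraries, against 49.3%, 47.9% and 40.6% for near-gene cytosines of that level. At 50 to 60%, the 451 desert cytosines were at 31.1%, 28.6% and 22.7%, against 27.8%, 26.7% and 20.7% near genes. Deserts were higher in all 3 cKO libraries in every bin of 10 points except that of 20 to 30%, where this held for 2. The share left was 57.6% in deserts and 52.8% near genes at 30 to 40%, 47.6% and 44.0% at 60 to 70%, and 52.9% and 48.5% at 90 to 100%. In the bin of 0 to 10% the deserts were higher in control replicates 2 and 3 as well, and the share left was 177% in deserts and 177% near genes.

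**Figure D3:**
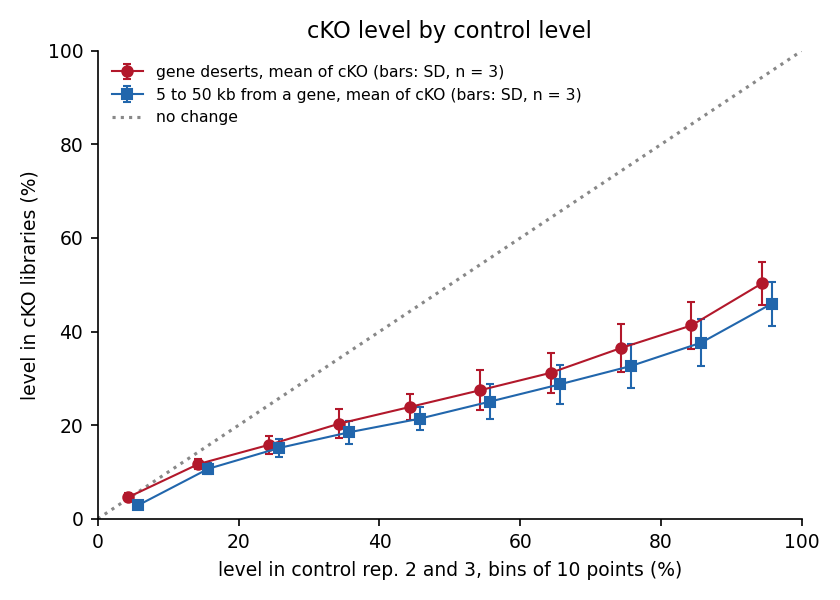
Level in the cKO libraries (vertical axis, percent, mean of 3 libraries with the SD as bars) by the level in control replicates 2 and 3 (horizontal axis, bins of 10 points), for desert cytosines (circles) and cytosines 5 to 50 kb from a gene (squares). The dotted line marks equal levels. At 90 to 100% the deserts keep 52.9% of the control level and the near-gene cytosines 48.5%.

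The share left went up with distance from genes rather than in a step at 300 kb. At the desert distribution of control levels, the mean of the cKO libraries was 43.3% inside protein-coding genes, 44.0% within 5 kb of one, 46.7% at 5 to 50 kb and 47.7% at 50 to 100 kb. It was 49.2% at 100 to 300 kb, 50.1% at 300 to 500 kb, 52.1% at 500 to 1000 kb and 51.6% beyond 1000 kb. The rise thus continued up to 500 to 1000 kb and not beyond 1000 kb. Sequence changed along the same axis, with repeats at 17.2% of cytosines at 5 to 50 kb, 38.9% at 300 to 500 kb and 63.5% beyond 1000 kb. The distances share libraries and controls, and no test was made of the trend.

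Repeats and unique sequence differed in this respect. In unique sequence the share left was 44.7% at 5 to 50 kb, 47.0% at 300 to 500 kb, 48.5% at 500 to 1000 kb and 48.9% beyond 1000 kb. In repeats it was 52.6%, 53.7%, 54.5% and 53.1% at these distances. Each kind was weighted to the control levels of its own desert cytosines, on average 86.0% in repeats and 68.9% in unique sequence. The 2 kinds were thus not compared at a common level. Within its own weighting, the share in repeats varied less with distance.

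**Figure D4:**
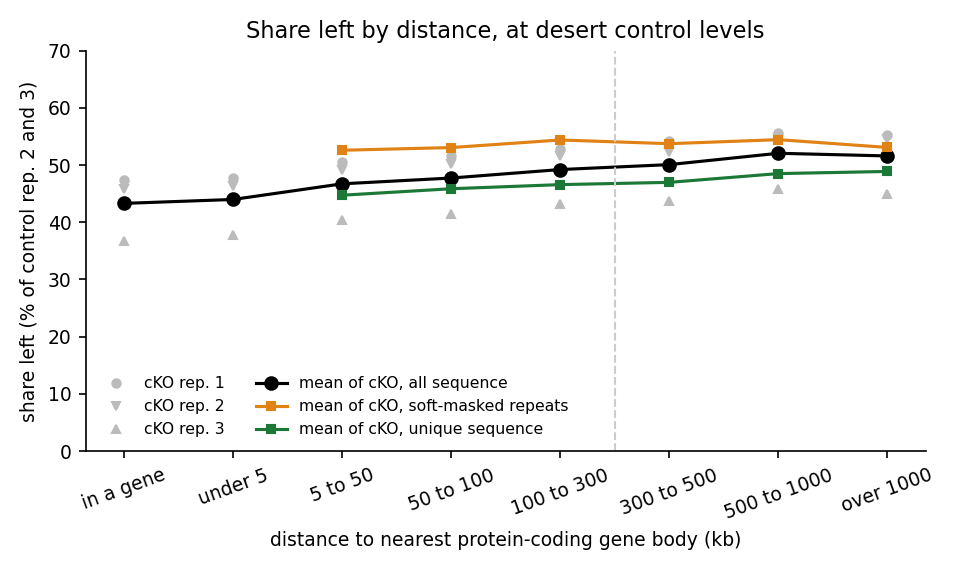
Share left (vertical axis, percent of control replicates 2 and 3, from 0) by distance to the nearest protein-coding gene body (horizontal axis, kb), weighted to the control levels of the desert cytosines. Grey symbols are the single cKO libraries and the black line their mean over all sequence. The coloured lines are the means in soft-masked repeats and in unique sequence, each weighted to the desert cytosines of its own kind. The dashed line marks the desert limit. The black line lies at 43.3% inside genes and at 52.1% at 500 to 1000 kb.

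The 7054 desert cytosines in repeats, which are mostly remnants of transposons, were at 49.2%, 48.5% and 41.5% in the cKO libraries, against 43.1%, 86.0% and 86.0% in control replicates 1, 2 and 3. The 7580 desert cytosines in unique sequence were at 36.0%, 34.7% and 28.1% in the cKO libraries, against 28.9%, 69.3% and 68.5% in the controls. At matched level, desert repeats kept 53.9%, against 52.6% for near-gene repeats, a difference of 1.34 ± 0.144 points (SD, n = 3). In unique sequence the deserts kept 47.7%, against 44.7% near genes, a difference of 3.0 ± 0.465 points. Matching on level and repeat status together left 2.11 points of the 4.34, with 3 of 3 cKO libraries higher in deserts.

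CpG density divided the members further. In sparse sequence, with 0 to 2 other CpGs within 100 bp, the share left was 44.6% in deserts and 42.7% near genes. With 3 to 5 it was 48.6% and 45.02%, and with 6 or more it was 60.5% and 53.8%. The difference was 1.90, 3.56 and 6.74 points in these classes, positive in all 3 cKO libraries in each. Within repeats it was 0.00875 ± 0.248 points in sparse sequence, with 1 of 3 libraries higher in deserts, 0.209 ± 0.218 points at 3 to 5 CpGs and 2.73 ± 0.162 points at 6 or more (SD, n = 3 each). Sparse desert repeats were thus not distinguishable from sparse near-gene repeats by the spread between libraries.

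Within unique sequence the difference was 1.61 ± 0.669, 3.57 ± 0.512 and 5.97 ± 0.625 points from sparse to dense (SD, n = 3 each). The 1831 dense unique members were at 35.5%, 33.5% and 28.9% in the cKO libraries, against 29.5%, 58.9% and 56.7% in control replicates 1, 2 and 3. The 3054 dense repeat members were at 56.2%, 55.8% and 49.5%, against 51.3%, 86.5% and 86.7%. These dense repeats had the highest share left of the 6 classes, 62.2% ± 4.37 (SD, n = 3), against 59.4% ± 4.53 in dense repeats near genes. The 6 classes were not compared at a common level. Their desert mean in control replicates 2 and 3 ran from 57.8% in dense unique sequence to 86.6% in dense repeats.

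CpG islands, computed from sequence, held 3988 members in 327 deserts. Unlike islands near genes they were mostly methylated, with 65.5% of their cytosines at 80% or more in control replicates 2 and 3, against 32.6% near genes, and 12.9% at 20% or less, against 47.0%. Of the desert island cytosines 58.8% lay in repeats, against 17.8% near genes. Their level was 48.2%, 47.0% and 41.9% in the cKO libraries, against 42.9%, 74.3% and 73.6% in the controls. The share left at matched level was 61.8% in desert islands and 54.2% in near-gene islands.

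The difference varied less with the bases beside the CpG than with CpG density. With C or G on both sides the share left was 51.9% in deserts and 47.8% near genes, and with A or T on both sides it was 45.5% and 41.8%. The difference lay between 3.72 and 4.85 points in the 3 flank classes. Where the 1 kb around a cytosine had 50% GC or more, the difference was 10.1 points, with 58.1% left in deserts and 48.0% near genes. Below 45% GC it was 1.67 points.

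Single sites were read at higher depth. Among sites with at least 20 reads in every library and 80% or more in control replicates 2 and 3, the mean of the cKO libraries had a median of 42.1% over 2765 desert sites and 37.3% over 8640 near-gene sites. The middle of the desert sites spanned 34.4 to 54.8% (quartiles), against 31.3 to 45.5%. A cKO mean of 80% or more was kept by 158 desert sites (5.71%) and 181 near-gene sites (2.09%). Of the 158, 86.7% lay in repeats, compared with 57.8% of all 2765, and they had a median of 9 other CpGs within 100 bp, compared with 4. At the other end, 24 desert sites (0.868%) and 103 near-gene sites (1.19%) had a cKO mean of 20% or less.

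Reads were also summed over the covered cytosines of windows of 100 bp across the whole table. Each window was tested for a group difference with a moderated quasi-binomial test. Called means a Benjamini-Hochberg q under 0.01 over all windows and a difference of at least 25 points. With all 6 libraries, 0 of 8956 desert windows were called lower in cKO, and 0% of all 285466 windows were. At an unadjusted p under 0.05 there were 1740 desert windows (19.4%), against 15.3% of all windows. Limma on window percentages called 0 desert windows and 0% of all windows. A plain binomial test, which ignores the spread between libraries, called 4718 desert windows (52.7%), against 37.5% of all windows. Without control replicate 1, 5605 desert windows (62.6%) fell and 1 rose, where 44.1% of all windows fell. Near genes 52.6% of windows fell. On these 5 libraries limma on window percentages called 2234 desert windows lower (24.9%), against 17.7% of all windows. Limma with the replicate number as a block called 0 desert windows and 0% of all windows. The median difference in desert windows was -44.3 points when control replicate 2 was left out as well, and -44.4 points when control replicate 3 was.

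The higher share of called windows in deserts without control replicate 1 went with their higher control level. The called shares and median differences below are from that fit, since 0% of all windows were called with all 6 libraries. Of the desert windows 93.0% were at 25% or more in control replicates 2 and 3 and so could fall by the required amount, against 80.6% near genes and 65.4% of all windows. Among these windows 67.3% were called in deserts, 65.2% near genes and 67.4% over the whole table. At the desert distribution of levels 72.3% of near-gene windows and 74.2% of all windows were called, so the desert share was the lower one. The median difference among windows that could fall was -45.8 points in deserts and -44.8 points near genes, and the lowest library had a median of 18 and 19 reads. In 7626 desert windows (85.1%) all 3 cKO libraries lay below control replicates 2 and 3, where this held for 61.3% of all windows. All 3 lay below all 3 controls in 1424 (15.9%), where this held for 11.3% of all windows.

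The difference between deserts and near-gene cytosines was positive on each of the 19 autosomes, in all 3 cKO libraries on each, from 1.00 points on chromosome 17 to 7.36 points on chromosome 10. The chromosomes differ in how much they contributed, from 205 members on chromosome 19 to 1522 on chromosome 12. Their desert levels ranged from 32.5 to 44.9% in cKO and from 64.0 to 83.0% in control replicates 2 and 3. Chromosome 12 was lowest in both.

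Among single deserts, 236 had at least 20 members and a mean of 50% or more in control replicates 2 and 3. Each of the 236 was lower in all 3 cKO libraries than in these 2 controls, and 5 were lower than all 3 controls. Their share left had a median of 50.4%, with quartiles of 46.9 and 54.4% and limits of 36.7 and 74.5%. In 183 (77.5%) the share, as the mean of the cKO libraries, was above that of near-gene cytosines of the same levels. It was above in all 3 cKO libraries in 144 deserts and below in all 3 in 20. By the mean, in deserts of 1 Mb or longer it was above in 97 of 108, in those of 0.5 to 1 Mb in 51 of 72 and in shorter ones in 35 of 56. Their median share of repeats was 65.1%, 54.3% and 27.6% in that order.

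**Figure D5:**
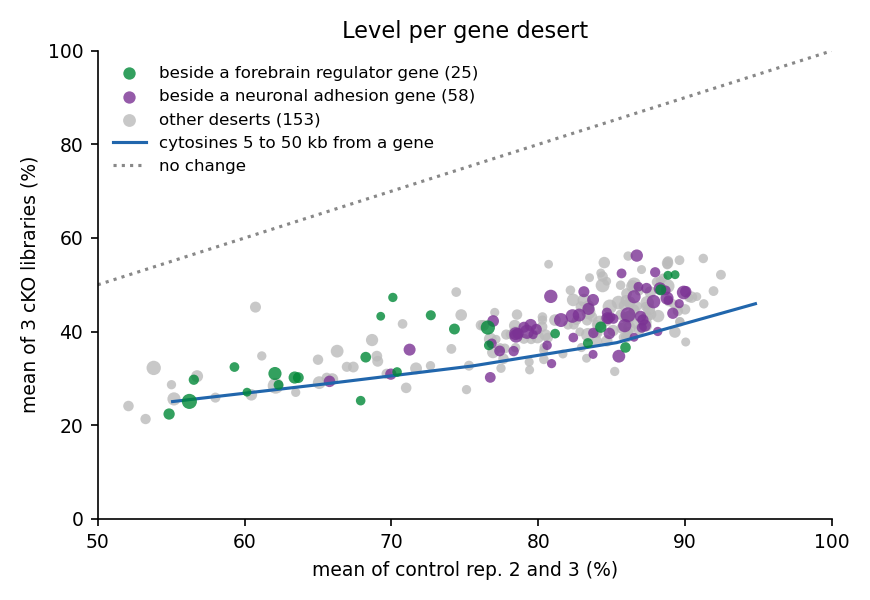
Each point is 1 of the 236 gene deserts with at least 20 members and a mean of 50% or more in control replicates 2 and 3. Its area grows with the number of members. Axes give its mean level in percent in the 3 cKO libraries (vertical) and in control replicates 2 and 3 (horizontal). Green and purple points lie beside a listed forebrain regulator or neuronal adhesion gene, the blue line gives the cytosines 5 to 50 kb from a gene and the dotted line equal levels. All points lie far below the dotted line, and 183 keep a larger share than near-gene cytosines of their levels.

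Across the 236 deserts, which are not replicates, Pearson's r of the share left with CpG density was 0.59 (Spearman's rho 0.55), with the percent of repeats 0.29 and with desert length 0.05.

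The desert with most members, 209, lies between Vrk1 and 3110018I06Rik (chromosome 12, 106377427 to 107188631). It was at 32.0%, 30.7% and 22.6% in the cKO libraries, against 24.6%, 63.6% and 60.6% in control replicates 1, 2 and 3. Its share left was 45.8%, close to the 46.3% of near-gene cytosines at the same levels, and only 3.83% of its members lay in repeats.

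The next, with 201 members between Ywhaq, a gene for a 14-3-3 signalling adaptor, and Gm10330 (chromosome 12, 21717638 to 23478911), was at 16.2%, 12.8% and 10.8% in the cKO libraries and at 11.1%, 26.5% and 23.5% in the controls, and 88.6% of its members lay in CpG islands. It holds 40 annotated pseudogenes, and a split of reads among near-identical copies was not tested. Without this desert the difference between deserts and near-gene cytosines was 4.37 points.

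Of the larger deserts, that between Cntnap5b and Cdh20 (chromosome 1, 100785943 to 104468528, 167 members) was at 46.7%, 46.2% and 37.8% in the cKO libraries, against 38.5%, 86.0% and 86.2% in the controls. That between Tenm3, a teneurin gene of synaptic wiring, and Aga (chromosome 8, 49143952 to 53211726, 126 members) is the longest, at 4.07 Mb. It was at 45.4%, 44.7% and 37.2% in the cKO libraries, against 38.8%, 82.3% and 80.7% in the controls. Both kept about the same share, 50.6% and 52.1%.

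The deserts with the highest and lowest shares among these 236 were picked by that value and are described without a test. The other deserts are not ranked. The highest share, 74.5%, was in 49 members between Hpcal1 and 5730507C01Rik on chromosome 12, with 19.5 other CpGs within 100 bp on average. These members lay in 13 windows of 100 bp, and 91.8% of them in CpG islands. This desert holds 4 annotated pseudogenes, and a split of reads among near-identical copies was not tested. It was at 47.6%, 48.3% and 39.8% in the cKO libraries, against 40.3%, 65.7% and 55.7% in the controls. Next among the 236 came those between Mc2r and Tcf4, a transcription factor gene of neural development, with 67.5%, Khdrbs2 and Prim2 with 67.4%, Fam19a2 and Slc16a7 with 65.2%, and Cyp7b1 and Armc1 with 65.1%. Their members lay in 7 to 15 windows of 100 bp each.

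The lowest share among the 236, 36.7%, was in 25 members between Lrig3 and Atp23 on chromosome 10. It was at 27.2%, 32.5% and 23.1% in the cKO libraries, against 19.1%, 75.7% and 74.5% in the controls, with 0% of its members in repeats. The next were between Kif2b and Car10 with 37.0%, Pkn2 and Lmo4, a LIM-only cofactor gene of the cortex, with 37.2%, Cdh11 and Cdh5 with 39.4%, and Fgf9 and 1700129C05Rik with 39.4%. These 5 had 1.92 to 3 other CpGs within 100 bp on average, and the 5 with the highest shares 4.44 to 19.5.

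By their flanking genes, 39 deserts with 1440 members lay beside 1 of 84 listed regulators of forebrain development, and 82 with 3771 members beside 1 of 95 listed neuronal adhesion genes. Of the first, 25 had at least 20 members at 50% or more in the controls, with a median share left of 48.8%, against 50.4% in the 211 other such deserts. Of the second there were 58, with a median of 50.6%, against 50.3% in 178 others. The deserts beside forebrain regulators were less methylated, with a median of 70.1% in control replicates 2 and 3, against 83.7%, and a median of 32.4% of members in repeats, against 57.8%.

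Beside forebrain regulators, the desert between Sall3, a zinc finger transcription factor gene, and Galr1 (173 members) was at 28.2%, 26.5% and 20.5% in the cKO libraries, against 20.2%, 56.6% and 55.9% in the controls. That between Zeb2, a zinc finger transcription factor gene of the developing cortex, and Acvr2a (135 members) was at 45.2%, 41.8% and 35.6%, against 39.3%, 75.8% and 77.3%. The shares left were 44.6% and 53.4%. Tshz1 and Tshz3 encode teashirt zinc finger factors. The desert between Zfp516 and Tshz1 kept 50.0%, and those on either side of Tshz3 kept 47.6% towards Zfp507 and 44.98% towards Zfp536.

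Beside adhesion genes, the desert between Cdh2, the N-cadherin gene, and Dsc3 (118 members) was at 52.3%, 49.9% and 42.9% in the cKO libraries, against 47.1%, 90.4% and 89.4% in the controls. That between Igfbp7 and Adgrl3, a latrophilin receptor gene (132 members), was at 41.3%, 41.3% and 37.2%, against 38.1%, 79.0% and 79.4%. The shares left were 53.8% and 50.4%. In each of the deserts given with 6 values, control replicate 1 lay below control replicates 2 and 3.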

How the data were processed

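DNA methylation was read by Ox-RRBS in 6 libraries, 3 cKO and 3 control. Per the study's methods and notes, the authors mapped reads without mismatch (Genomatix) to GRCm38, left out thinly covered cytosines and used methylKit. Each line of the deposited files holds a cytosine with its coverage (a read count), the percent read as C and the percent read as T, without normalisation between libraries. Counts of methylated reads were recovered from both. Coverage summed over listed cytosines was 22495858 to 31019082 in cKO libraries and 18238737 to 22212920 in controls. Reads have no molecular identifiers, so intervals cover counting error only.

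The members and the gene lists were chosen with earlier results of these data known. Distances were taken to protein-coding gene bodies of GENCODE M21, repeats are the soft-masked bases of the GRCm38 sequence, and islands are stretches of 200 bp or more with at least 50% GC and an observed to expected CpG ratio of 0.6. Levels weight each cytosine equally. Levels were compared with two-sided exact permutation tests over libraries, and differences in share left with a two-sided exact sign-flip test over the 3 cKO libraries. The quasi-binomial dispersion of 100 bp windows was moderated by limma's empirical Bayes method, with the prior fitted on windows of 5 to 95% pooled methylation and a floor of 1, and was tested on simulated data. Named deserts are the 10 with most members, the 5 highest and 5 lowest in share left among those with at least 20 members and 50% or more in control replicates 2 and 3, and up to 4 per list, of which 1 is not reported here. Printed sequence is from deserts outside chromosome 18. The tools were R 4.3.3 with limma 3.58.1, and matplotlib 3.10.9, pandas 2.3.3, scipy 1.17.1 and numpy 2.4.6 in Python 3.11.15. Coverage minima, distance limits, weights, sequence classes, other matchings, other window tests, leaving out 1 library at a time and a block on the replicate number were tried as alternatives.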

Additional observations from a re-analysis of the deposited data

How the results depend on the processing

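The level difference stayed negative under all 17 alternatives, from -37.8 to -16.9 points when 1 library was left out, with the largest value without control replicate 1 and the smallest without control replicate 2, and from -26.2 to -22.7 points otherwise. The larger share left in deserts stayed positive under all 29 alternatives, at 4.29 to 5.46 points when 1 library was left out, and 3.75 to 3.85 points for the mean of both cross-matched readings. It moved most when each read counted equally (7.10 points), in comparison with cytosines 50 to 300 kb from a gene (2.48), with all 3 controls as denominator (2.88) and with matching on repeat status (2.11) or on repeat status and CpG density (2.06, chosen after seeing the data). For the share left, the alternative without control replicate 1 is no check, because the main value does not use that library. None of these permutation tests can pass 0.05.

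With all 6 libraries the plain binomial test called 4718 desert windows, and 0 to 5605 were called when 1 library was left out, all 5605 without control replicate 1. Without that library, limma on percentages called 2234 and limma with the replicate block 0, and 3011 to 5465 were called when another library was also left out, with 3011 without control replicate 2 and 3522 without control replicate 3, where the lone control is assumed to vary like the cKO libraries. The cause of these changes was not tested. The labels do not say that replicate numbers mark a shared litter. As a replicate block, same-numbered pairs gave -23.9 points (exact sign-flip permutation p = 0.5), and cKO replicates 2 and 3 over their same-numbered controls gave 4.34 points.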
